A study of Mus musculus with 8 samples.

Results

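The genes described here mark nerves, glia and the neural crest cells they come from. They are Th, Dbh, Elavl3, Tubb3, Stmn2, Prph, Gap43 and Sox10, and all 8 were found, by the RefSeq accession of their probes, among the 22911 named genes on the array. Gene expression was measured in whole embryonic mouse kidneys at day 14.5 of gestation. Mutant kidneys were conditional Mdm4 knockouts made with a Hoxb7Cre transgene, and the reference was wild-type kidneys. The labels give 4 mutant and 4 wild-type RNAs in 4 pairs, and each pair was hybridised on 2 arrays with the dyes exchanged, so that n = 4 pairs. In mutant kidneys of pairs 2 and 3, log2 normalised intensities of many genes described below were close. Stmn2 was at 11.22 and 11.20, and the Y-linked Eif2s3y at 8.70 and 8.56. In their wild-type partners Stmn2 was at 11.44 and 11.11 and Eif2s3y at 6.44 and 10.58. Whether these 2 mutant RNAs are independent was not tested, and n = 4 takes them as such. The labels do not say whether wild-type embryos carried the Cre transgene or a conditional allele. Nor do they say how many embryos gave an RNA, or why a mutant and a wild type were paired. A p-value here reflects only differences between the 4 pairs, part of which may be technical, with each gene's variance drawn toward that of all genes.

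Autonomic nerves reach the kidney along its arteries, and both their neurons and the glia that wrap them descend from the neural crest. Sympathetic neurons and the chromaffin cells of the neighbouring adrenal medulla make noradrenaline from tyrosine in a chain of enzymes, in which tyrosine hydroxylase (Th) acts first and dopamine beta-hydroxylase (Dbh) turns dopamine into noradrenaline. Growing axons hold the tubulin Tubb3, the intermediate filament protein peripherin (Prph), the microtubule regulator stathmin 2 (Stmn2) and the growth cone protein Gap43. Elavl3 encodes a neuronal RNA-binding protein, and Sox10 a transcription factor of neural crest and glia. Hoxb7-driven Cre acts in the ureteric bud and the collecting ducts that grow from it, an epithelium outside the neural crest lineage.

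The promoters of Th and Dbh are shown because these genes encode enzymes of the same chain and because both are known to respond to cyclic AMP signalling and to homeodomain factors of sympathetic neurons. The sequences are from RefSeq on the GRCm38.p6 build and run from 250 bases before the annotated start to 50 after it. That of Th lies at chr7:142899946-142900245 on the minus strand and that of Dbh at chr2:27165257-27165556 on the plus strand. Capitals mark every match, on either strand, to the cyclic AMP response element TGACGTCA and to the homeodomain core TAAT.
Th: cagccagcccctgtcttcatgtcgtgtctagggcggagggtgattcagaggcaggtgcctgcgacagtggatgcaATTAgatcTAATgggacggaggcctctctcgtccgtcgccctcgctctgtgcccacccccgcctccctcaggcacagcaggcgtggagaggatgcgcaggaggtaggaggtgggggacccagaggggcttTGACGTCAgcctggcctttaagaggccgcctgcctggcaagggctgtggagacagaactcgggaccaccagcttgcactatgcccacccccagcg
Dbh: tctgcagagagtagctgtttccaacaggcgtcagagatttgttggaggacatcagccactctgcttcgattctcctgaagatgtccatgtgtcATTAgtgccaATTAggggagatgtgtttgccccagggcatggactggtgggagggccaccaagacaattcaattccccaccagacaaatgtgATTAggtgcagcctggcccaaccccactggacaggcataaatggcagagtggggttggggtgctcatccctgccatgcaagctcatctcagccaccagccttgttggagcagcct
The Th window held 1 response element, which began at position -45 relative to the start, and the Dbh window held 0. The core was found 2 times in the Th window and 3 times in the Dbh window. Among all 32851 promoter windows of this length, 1.79% held the response element and 58% the homeodomain core, and the 2 motifs overlapped in neither sequence. These matches describe the letters only.

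Whether the genes could be measured was examined first. The 8 genes had 12 probes, and a probe was kept if either genotype had 6 or more of its 8 channels well above background. Of the 12 probes 9 passed, and each gene was represented by its brightest probe that passed. That probe was well above background in 8 of 8 mutant and 8 of 8 wild-type channels for 7 of the 8 genes. The exception was Dbh, at 6 of 8 mutant and 5 of 8 wild-type channels, so that it passed through the mutant channels alone. The 4 genes with another probe were less clear on it. The other Th probe was well above background in 0 of 8 mutant and 0 of 8 wild-type channels, that of Dbh in 2 and 0, that of Prph in 2 and 1, and that of Elavl3 in 4 and 6. The values of Th, Dbh and Prph therefore rest on 1 probe of 2, while both Elavl3 probes passed.

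**Figure D1:**
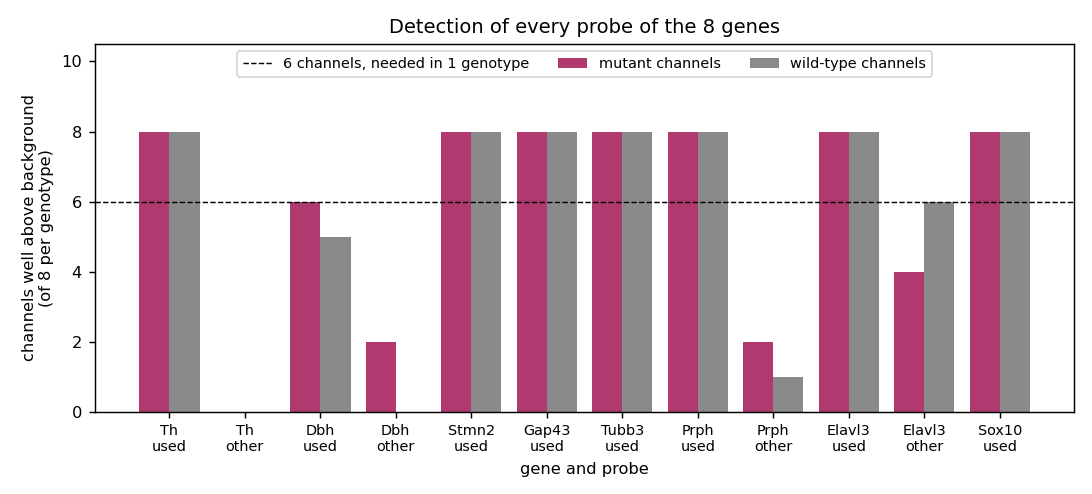
Number of channels, of 8 per genotype, in which each of the 12 probes was well above background (left bar mutant, right bar wild type). The dashed line is the minimum of 6 channels, and the probe marked as used is the one that stands for its gene. The other Th probe has no bar because it was well above background in 0 channels of either genotype.

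The defining genes of sympathetic neurons and of early glia were largely below this limit. In a list of 23 sympathetic and catecholamine genes, 17 were measured. Among the 6 that were not are the transcription factor genes Hand2 (well above background in 1 of 8 mutant and 1 of 8 wild-type channels), Insm1 (1 and 0), Hand1 (0 and 1) and Isl1 (4 and 3), and Slc6a2, which encodes the noradrenaline transporter (0 and 0). In a list of 24 neural crest and glia genes 18 were measured. The other 6 were Foxd3, Cdh19 and Sox2 (0 channels of either genotype), Pax3 (2 of 8 mutant and 0 of 8 wild-type channels), Erbb3 (3 and 4) and Gfap (4 and 5). By contrast, all 17 genes of a kidney list, among them Six2, Wt1 and Ret, were measured. The names sympathetic, neural and glial therefore stand here for what the genes mark elsewhere. In whole kidneys, fewer cells of a type and less RNA per cell cannot be told apart.

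Mutant kidneys were compared with wild-type kidneys to ask what loss of Mdm4 in the ureteric lineage does to the transcripts of the organ. Ratios are log2 of mutant over wild type, with the 2 arrays of a pair averaged, and were tested against 0 with limma, two-sided, and p was adjusted by Benjamini-Hochberg across 16013 tested genes. Of the 8 genes 0 passed at an adjusted p of 0.05, against 0 of all genes (0%), and their adjusted p lay between 0.442 and 0.992. At an unadjusted p under 0.05 there was 1 member, Dbh, higher in the mutant, which is 12.5% of the 8 genes, where 7.01% of all genes were higher and 3.60% lower. Dbh entered the test through its mutant channels alone, the genotype in which it was higher, so that this count is not independent of the filter. The mean ratio was above 0 for 6 of the 8 genes, against 53.9% of all genes, and below 0 for Tubb3 and Gap43 (Gap43 was above 0 with median centring), with a median of 0.05 over the 8 genes and 0.01 over all genes tested. Higher in every pair was 1 of the 8 (12.5%, against 12.1% of all genes), and lower in every pair were 0 (7.84% of all genes). The share higher in every pair is near that of all genes. Mutant and wild-type levels did not overlap for 0 of the 8 genes and for 4.87% of all genes. With all 8 arrays in 1 fit and the pair as a replicate block limma called 39 genes, 0 of them among the 8, and with median centring 42 genes, again 0 of the 8.

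**Figure D2:**
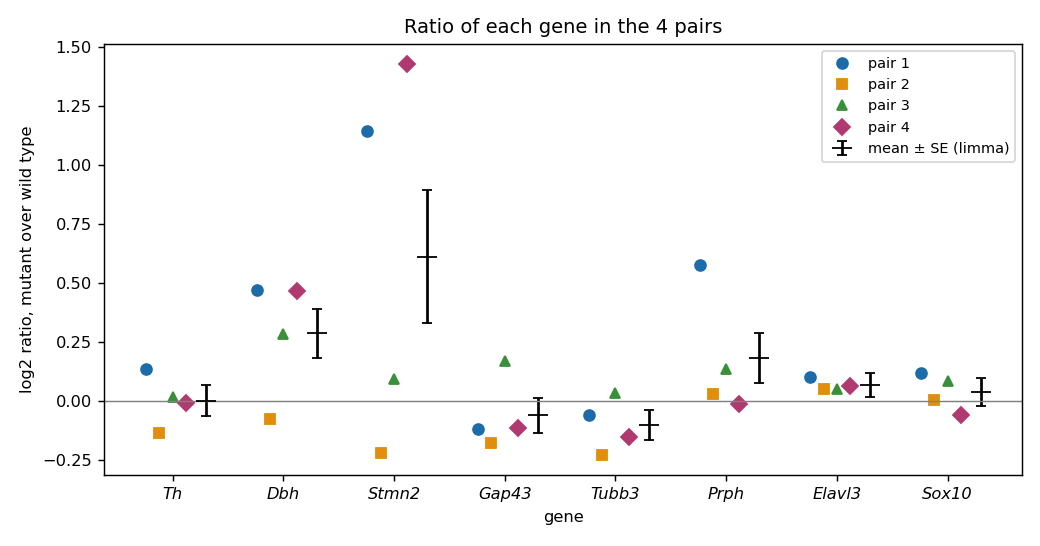
Log2 ratio of mutant over wild type for each of the 8 genes, with 1 symbol per pair (mean of its 2 dye-swapped arrays) and the mean with its standard error from limma in black (n = 4 pairs). Stmn2 spreads from -0.22 to 1.43, and Elavl3 from 0.05 to 0.10.

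Th and Dbh, the enzyme genes of noradrenaline synthesis among the 8, had different ratios. On the used Th probe the log2 normalised intensity was 8.20, 7.88, 7.94 and 7.65 in mutant kidneys of pairs 1 to 4, against 8.06, 8.02, 7.92 and 7.66 in wild-type kidneys. Pair 1 was highest and pair 4 lowest in both genotypes, so that the pairs differed more than the genotypes did. The ratios were 0.13, -0.14, 0.02 and -0.01, with a mean of 0.0024 ± 0.06 (SE, n = 4, limma adjusted p = 0.992). The 95% interval of the mean ran from -0.15 to 0.16. With the mutant labelled in Cy5 the mean was -0.10, and with the mutant in Cy3 it was 0.10, so that the sign of the mean followed the dye. In pair 1, however, both arrays were above 0, at 0.15 and 0.12.

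Dbh had the smallest p of the 8 genes, but it had passed the filter through its mutant channels alone. Its log2 normalised intensity was 7.45, 6.90, 6.83 and 7.18 in mutant kidneys of pairs 1 to 4, against 6.98, 6.97, 6.55 and 6.72 in wild-type kidneys. It was higher in the mutant in pairs 1, 3 and 4, while pair 2 went the other way, and the groups overlapped. The ratios were 0.47, -0.08, 0.29 and 0.47, with a mean of 0.29 ± 0.10 (SE, n = 4), or 1.22-fold, at an unadjusted p of 0.0308 and a limma adjusted p of 0.442. The 95% interval, not adjusted for the number of genes, was 0.04 to 0.54. The 2 arrays of a pair differed little for this gene, by a median of 0.04, against 0.18 over all genes tested. The signal was dim, and the offset of 50 added in background correction pulls the ratio of a dim probe toward 0. With an offset of 10 the mean was 0.45, and with the scanner software's processed signals 1.22 (limma adjusted p of 0.422 and 0.455). Over all its alternatives Dbh had adjusted p between 0.156 and 0.783. The other Dbh probe, which did not pass the filter, had ratios of -0.03, 0.08, 0.15 and 0.05.

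Other genes of catecholamine handling are named here for their place in the chain, after their values were seen. Ddc, which encodes the decarboxylase between Th and Dbh, was at -0.04 ± 0.09 (SE), and Pnmt, which makes adrenaline, at 0.16 ± 0.11. The vesicle transporter genes Slc18a1 and Slc18a2 were at 0.08 ± 0.10 and 0.08 ± 0.11. Phox2a, which encodes a homeodomain factor of these neurons, was at -0.01 ± 0.10. None of them came near the threshold, with adjusted p from 0.602 to 0.971. Chga, a secretory granule gene of the list outside this chain, was at 0.21 ± 0.09 (SE, limma adjusted p = 0.472). By the naming rule (up to 4 genes of a list with the smallest p), the list of sympathetic and catecholamine genes gave Dlk1, a membrane protein gene of chromaffin and many fetal cells, at 0.56 ± 0.18, the transcription factor gene Gata3 at -0.48 ± 0.16 and the secretory granule gene Chgb at 0.37 ± 0.14 (limma adjusted p from 0.425 to 0.453). Dlk1 was at 0.27 with the ratio of Y-linked genes in each pair as a covariate and at 0.35 without pair 1. Gata3 was at -0.81 with the mutant in Cy5 and -0.14 with the mutant in Cy3, and at -0.20 with that covariate. Chgb had 0.07, 0.11, 0.41 and 0.90 in pairs 1 to 4, was at 0.20 without pair 4, and was at 0.70 with processed signals. Gata3 and Eya1 stand in the kidney list too, as genes of ureteric bud and nephron progenitors. Of the 17 measured genes of this list 9 were higher and 8 lower, 1 was higher and 1 lower in every pair, and 0 passed. The list median was 0.03.

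Adrenal tissue lies beside the kidney at this stage, and its cortical genes were read beside Th and Dbh. Of 10 adrenal cortex genes 7 were measured, 1 higher and 6 lower in the mutant, with a median of -0.03. The steroidogenic genes Cyp11a1, Cyp11b1 and Hsd3b1 were not measured. Cyp11a1 was well above background in 4 mutant and 0 wild-type channels, and Hsd3b1 in at most 2 and 2. Cyp11b1 was well above background in 0 channels of either genotype. Cyp17a1, a steroid hydroxylase gene, was at -0.55 ± 0.15 (SE, limma adjusted p = 0.397). Its ratios were -0.28, -0.45, -0.34 and -1.12, and its mean was -0.87 with the mutant in Cy5, -0.22 with the mutant in Cy3 and -0.36 without pair 4. The steroid pathway genes Mc2r and Star were at -0.16 ± 0.07 and -0.09 ± 0.06. Akr1b7, an aldose reductase gene, had ratios of 0.27, 0.18, 0.24 and 1.94, with a mean of 0.66 ± 0.30 (limma adjusted p = 0.502), and without pair 4 the mean was 0.23. The normalised intensities of the 7 genes summed to between 17780 and 20211 in mutant and between 15082 and 19483 in wild-type kidneys. Bright genes weigh most in such a sum, and Akr1b7 was at a log2 intensity of 13.08 in the mutant of pair 4 and 11.14 in its wild type. The sums therefore do not measure an amount of adrenal tissue. The part of adrenal tissue in the Dbh values was not tested.

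Stmn2 had the largest mean ratio of the 8 genes and the least agreement between pairs. Its log2 normalised intensity was 12.10, 11.22, 11.20 and 12.08 in mutant kidneys of pairs 1 to 4, against 10.95, 11.44, 11.11 and 10.66 in wild-type kidneys. The mutant kidneys of pairs 1 and 4 lay above all others, and wild-type kidneys of pair 2 lay above mutant kidneys of pairs 2 and 3. The ratios were 1.14, -0.22, 0.09 and 1.43, with a mean of 0.61 ± 0.28 (SE, n = 4), or 1.53-fold, at an unadjusted p of 0.0717 and a limma adjusted p of 0.504. The spread between pairs, 1.65 from the lowest to the highest, was wider than for 98.7% of the genes tested, for which the median spread was 0.32. It was seen on both arrays of a pair, which gave 1.03 and 1.25 in pair 1 and 1.34 and 1.52 in pair 4. Without pair 4 the mean was 0.34, and without pair 2 it was 0.89.

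Sex-linked transcripts also differed within pairs, which touches the Stmn2 values. The Y-linked genes Eif2s3y, Kdm5d, Ddx3y and Uty were higher in the mutant in pairs 1, 2 and 4 and lower in pair 3. Xist went the other way, at -2.71, -0.23, 2.48 and -2.80 in pairs 1 to 4. Mutant Eif2s3y levels were 10.59, 8.70, 8.56 and 10.86 in pairs 1 to 4, against 6.68, 6.44, 10.58 and 6.76 in wild type. Mutants of pairs 2 and 3 thus lay between the high and low levels, and whether their RNA came from both sexes was not tested. Y-linked ratios were furthest above 0 in pairs 1 and 4, at 3.91 and 4.09 for Eif2s3y, the pairs in which Stmn2 was high, and at 2.26 in pair 2, in which Stmn2 was below 0. With the pair's mean ratio of Eif2s3y, Kdm5d and Ddx3y as a covariate the Stmn2 ratio was 0.24 (limma adjusted p = 0.875). That fit leaves few degrees of freedom, and 4 pairs do not separate sex from other differences between pairs.

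**Figure D3:**
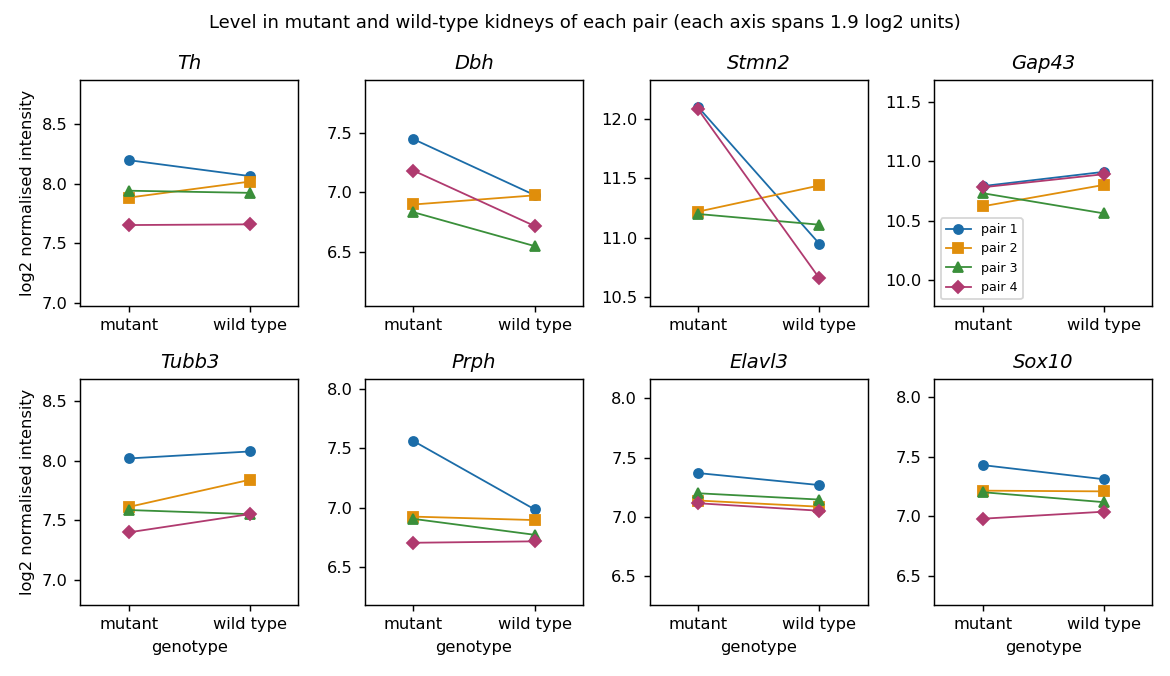
Log2 normalised intensity of the 8 genes in mutant (left) and wild-type (right) kidneys, with a line joining the 2 RNAs of a pair. Each axis spans 1.9 log2 units around that gene's own values. Stmn2 in mutant kidneys was at 12.10 and 12.08 in pairs 1 and 4, above every wild-type value, and at 11.22 and 11.20 in pairs 2 and 3.

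The other axon genes had ratios below 0.6 in every pair. Gap43 had log2 normalised intensities of 10.79, 10.62, 10.73 and 10.78 in mutant kidneys of pairs 1 to 4, against 10.91, 10.80, 10.56 and 10.89 in wild-type kidneys. It was lower in the mutant in 3 pairs and higher in pair 3, with a mean ratio of -0.06 ± 0.07 (SE, limma adjusted p = 0.778). With median centring the mean was 0.10 and with the sex covariate 0.03, so that its sign was not settled. Tubb3 was at 8.02, 7.61, 7.59 and 7.40 in mutant kidneys, against 8.08, 7.84, 7.55 and 7.55 in wild-type kidneys. It too was lower in 3 of 4 pairs, with ratios of -0.06, -0.23, 0.04 and -0.15 and a mean of -0.10 ± 0.06 (SE, limma adjusted p = 0.596), and it was at -0.19 with processed signals and -0.06 without pair 2. The 95% intervals of Gap43 and Tubb3 reached from -0.24 to 0.12 and from -0.26 to 0.06.

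Prph was high in 1 mutant RNA. Its log2 normalised intensity was 7.56, 6.92, 6.91 and 6.71 in mutant kidneys of pairs 1 to 4, against 6.99, 6.90, 6.77 and 6.72 in wild-type kidneys. The mutant of pair 1 stood above the rest, and the other pairs lay close together. The ratios were 0.57, 0.03, 0.13 and -0.01, with a mean of 0.18 ± 0.11 (SE, limma adjusted p = 0.568), and without pair 1 the mean was 0.05. With processed signals it was 0.32, and with an offset of 10 it was 0.28. Both arrays of pair 1 showed the difference, at 0.52 and 0.63. On the other Prph probe, which did not pass the filter, pair 1 was at 0.15 and the mean at -0.02.

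On the used probes, Elavl3 was the member with the same sign in every pair, and it was higher on 7 of 8 arrays. Its log2 normalised intensity was 7.37, 7.14, 7.20 and 7.12 in mutant kidneys, against 7.27, 7.09, 7.15 and 7.05 in wild-type kidneys. The ratios of 0.10, 0.05, 0.05 and 0.06 were small and close together, with a mean of 0.07 ± 0.05 (SE, limma adjusted p = 0.650) and a spread between pairs smaller than for all but 0.525% of the genes tested. The standard error exceeds what these ratios alone would give, because limma draws each gene's variance toward that of all genes. On the other Elavl3 probe, which also passed the filter, the ratios were 0.04, -0.01, 0.08 and 0.03, so that pair 2 was below 0. Sox10 was at 7.43, 7.22, 7.20 and 6.98 in mutant kidneys, against 7.31, 7.21, 7.12 and 7.04 in wild-type kidneys. It was higher in 3 pairs and lower in pair 4, with a mean of 0.04 ± 0.06 (SE, limma adjusted p = 0.828) and a 95% interval from -0.10 to 0.18. The sign of the Sox10 mean followed the dye, at 0.12 with the mutant in Cy5 and -0.04 with the mutant in Cy3. In pair 1, however, both arrays were at 0.12.

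**Figure D4:**
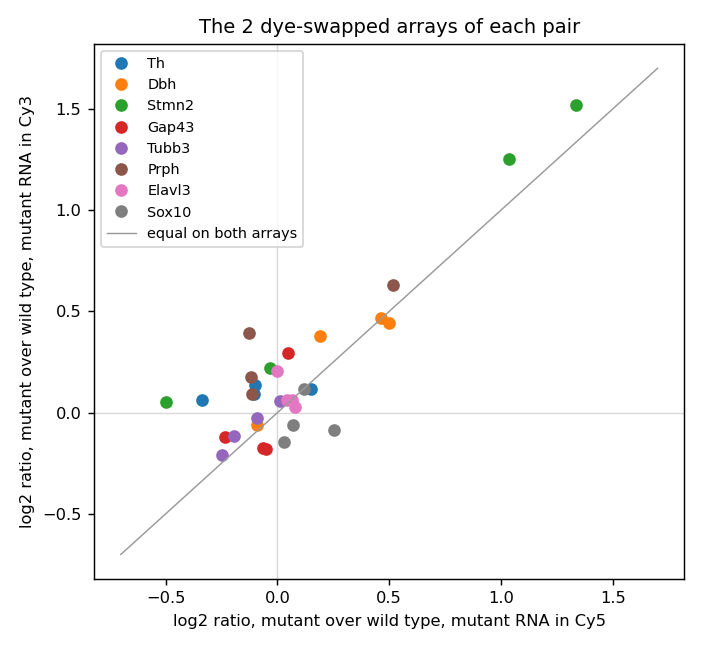
Log2 ratio of mutant over wild type with the mutant labelled in Cy5 (horizontal axis) and in Cy3 (vertical axis), 1 point per gene and pair, with a line where both arrays give the same ratio. Stmn2 in pairs 1 and 4 and Dbh in pairs 1 and 4 lie near the line and away from 0. Th averaged -0.10 on the first kind of array and 0.10 on the second.

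Further neuronal genes went both ways. Of 30 pan-neuronal and axon genes 27 were measured, 17 higher and 10 lower in the mutant, with a median of 0.05. In every pair 2 were higher and 3 lower, and 0 passed the test. By the naming rule the synaptic vesicle gene Syt1 was at 0.49 ± 0.12 (SE), with 0.64, 0.72, 0.03 and 0.59 in pairs 1 to 4. Uchl1, which encodes a neuronal deubiquitinating enzyme, was at -0.24 ± 0.07, the neurofilament gene Nefl at -0.20 ± 0.07 and the G protein subunit gene Gng3 at -0.18 ± 0.07 (limma adjusted p from 0.397 to 0.444). All 4 were closest to 0 in pair 3, the pair with Y-linked transcripts lower in the mutant. With the sex covariate Syt1 was at 0.31, Uchl1 at -0.18, Nefl at -0.12 and Gng3 at -0.11. Syt1 was at 0.20 with the mutant in Cy5 and 0.79 with the mutant in Cy3, and Nefl and Gng3 were at -0.34 and -0.34 in Cy5 and at -0.07 and -0.02 in Cy3. The signal of the list summed to between 82213 and 89929 in mutant and between 86632 and 91563 in wild-type kidneys. Of 12 genes of cholinergic and sensory neurons only 4 were measured, 2 higher and 2 lower, which were the peptide gene Calca at -0.16 ± 0.12, the acetylcholine synthesis gene Chat at 0.11 ± 0.09, the receptor gene Chrnb4 at -0.04 ± 0.08 and the vesicle transporter gene Slc18a3 at 0.03 ± 0.07.

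Of the 18 measured genes of neural crest and glia 13 were higher and 5 lower, where 53.9% of all genes were higher, and their median was 0.12, against 0.01 over all genes tested. In every pair 4 were higher and 2 lower, where 12.1% of all genes were higher and 7.84% lower. Of the list 0 passed the test, and without the filter on dim probes the median over all 24 genes was 0.05. S100b, a calcium-binding protein gene of glia, was at 0.45 ± 0.10 (SE), with 0.77, 0.37, 0.22 and 0.42 in pairs 1 to 4. The receptor phosphatase gene Ptprz1 was at 0.22 ± 0.06, and both genes were higher on 8 of 8 arrays. The transcription factor genes Sox8 and Tfap2a were at -0.40 ± 0.09 and -0.47 ± 0.14 (limma adjusted p of the 4 genes from 0.355 to 0.422). With processed signals S100b was at 0.96 and Sox8 at -1.05, and with the sex covariate Tfap2a was at -0.24. Ptprz1 was at 0.13 with the mutant in Cy5. Sox8 is also known from ureteric bud tips. The signal of the list summed to between 35588 and 44508 in mutant and between 31734 and 39471 in wild-type kidneys.

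Neurotrophic factors guide and keep alive the axons that enter an organ. All 12 genes of that list were measured, 5 higher and 7 lower, with a median of -0.02, and 0 passed. By the naming rule Nrg1, a growth factor gene for glia and other cells, was at 0.30 ± 0.06 (SE), Ntrk2, which encodes the receptor of brain-derived neurotrophic factor, at 0.37 ± 0.08, the neurturin co-receptor gene Gfra2 at 0.40 ± 0.13 and the neurturin gene Nrtn at -0.11 ± 0.06 (limma adjusted p from 0.304 to 0.539). Nrg1 and Ntrk2 were higher on 8 of 8 arrays, and Nrtn was above 0 with median centring. Gfra2 was at 0.17 with the sex covariate and at 0.22 over the median of its kept probes.

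**Figure D5:**
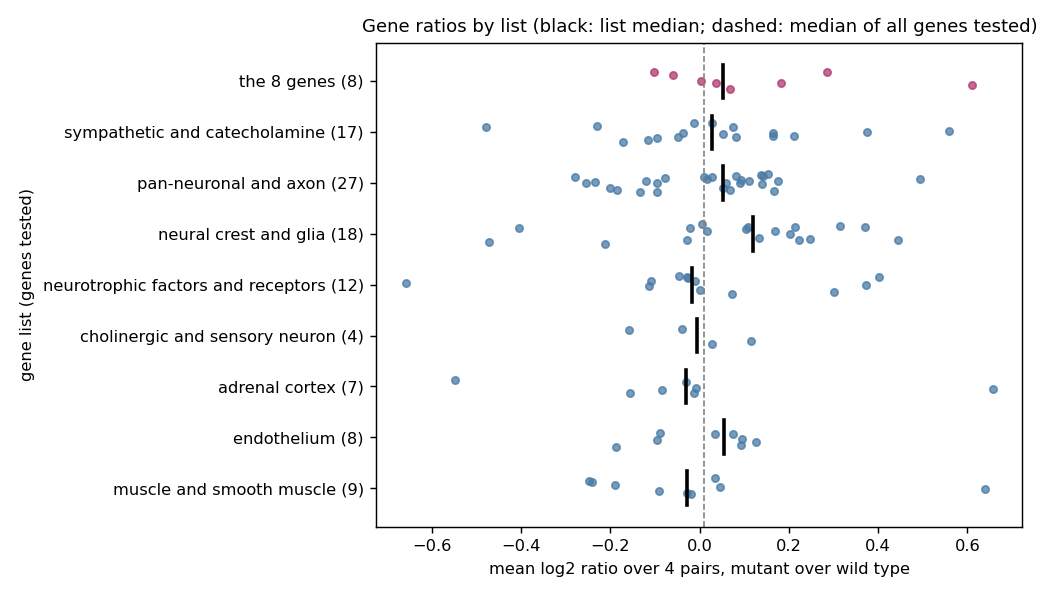
Mean log2 ratio of mutant over wild type over 4 pairs for each measured gene (1 point), by list, with the list median as a black bar and the median of all 16013 genes tested, 0.01, as a dashed line. The medians of the lists drawn lie between -0.03 and 0.12. The kidney list, with a median of -0.09, and the sex-linked genes are not drawn.

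Markers of other tissues had ratios of both signs. Of 8 endothelial genes 5 were higher and 3 lower, with a median of 0.06, and Esam, Tek, Kdr and Cdh5 were at -0.19, 0.13, 0.09 and 0.09. With median centring Esam was at -0.02 and Tek at 0.27, and Kdr and Cdh5 were below 0 with the mutant in Cy5. Of 9 muscle and smooth muscle genes 3 were higher and 6 lower, with a median of -0.03. The embryonic skeletal myosin gene Myh3 was at 1.71 in pair 1 and 0.01 in pair 2, with 0.65 and 0.19 in pairs 3 and 4 and a mean of 0.28 without pair 1, and Tagln, Actg2 and Acta2 averaged -0.25, -0.19 and -0.24, with signs that differed between the dye orientations. Of the 17 kidney genes 7 were higher and 10 lower, with a median of -0.09. Foxd1 was at 0.26, Lhx1 at -0.26, Calb1 at -0.69 and Nphs1 at 0.37. With the mutant in Cy3 Foxd1 was at 0.04 and Lhx1 at -0.08, with the sex covariate Calb1 was at -0.30, and Nphs1 was at 0.16 over the median of its kept probes and 0.80 with processed signals. Mdm4, the targeted gene, was at -0.18 ± 0.07 (SE, limma adjusted p = 0.471), at -0.000616 with the mutant in Cy5 and -0.36 with the mutant in Cy3. The sources used here do not place its probes relative to the deleted part, so that this value checks no label.

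The genes whose 4 ratios came closest to the mean profile of the 8 genes, which was 0.30, -0.09, 0.11 and 0.20 in pairs 1 to 4, were Maob, Abca9, Tmod1 and Rtn2. Their root mean square difference from it over the 4 pairs was 0.02 to 0.04, among 846 genes with the same sign as the profile in every pair. Maob encodes a monoamine oxidase, and its ratios were 0.34, -0.08, 0.13 and 0.19. The profile owes much to Stmn2, and 4 pairs set little limit on such likeness.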

How the data were processed

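Each array held 62976 spots, of which 3671 were control spots. Of the other spots, 60.7% to 70.2% per mutant channel and 61.6% to 67.3% per wild-type channel were well above background, and 0 were saturated. Precision is limited by the number of arrays, which lay on 1 slide. The scanner files hold median spot and background intensities and processed signals, deposited as Agilent Feature Extraction wrote them, version 8.5.1.1 per the submitters' processing notes but 10.7.3.1 per the file headers. Values in the deposited series table are log10 ratios (Cy5 over Cy3, not turned for the dye swap) and differed from the scanner files' ratios by less than 0.005.

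From the intensities, limma 3.58.1 under R 4.3.3 was used for normexp with an offset of 50, loess within arrays, control and outlier spots left out, and every ratio was expressed as mutant over wild type. Averages were taken over spots of a probe, then over both arrays of a pair. Levels per genotype were taken after Aquantile scaling between arrays, and levels of different probes are not compared as amounts of RNA. Sums of intensity over a list follow its brightest genes. Probes kept numbered 34594 of 56605. Of all probes 32994 were named through RefSeq accessions in the GRCm38.p6 annotation, which gave 16013 genes tested. Pairs come from the labels. Across genes, deviations of the 2 arrays of a pair correlated at 0.627 to 0.862, against -0.455 to 0.219 for arrays of different pairs. The limma fit was tested on simulated pair ratios, and the steps before it were not part of that test.

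The 8 genes, the lists and the alternatives were chosen with earlier results of these data known. The rule named the 8 genes, Mdm4, up to 4 genes with the smallest p of each list, and the 4 genes most like the mean of the 8. A gene that it named is not reported here. Lists were described by counts and medians, without a test.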

Additional observations from a re-analysis of the deposited data

Results flagged for a closer look

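Among 52 genes named by the rule, 2 had 1 pair far from the other 3, judged by the gap to the nearest pair as a share of the range over the 4 pairs, set against Dixon's 95% critical value. Chance alone gives about 1 such gene in 20. Ntrk2 stood out in pair 1 (share 0.92), with 0.64, 0.29, 0.27 and 0.30 in pairs 1 to 4. Akr1b7 stood out in pair 4 (share 0.947), with 0.27, 0.18, 0.24 and 1.94. None of the 8 nerve and glia genes was among them.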

How the results depend on the processing

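Of the 8 genes 0 were called in any of the 18 alternatives. The number of all genes called was 0 except with median centring (42 genes) and with the pair as a replicate block (39 genes), and it was 0 with each pair left out in turn. Unadjusted p under 0.05 was reached by 1699 genes in the reported fit and by 1304 in an ordinary test without moderation, in which 0 genes passed the adjustment. The median of the 8 genes moved by less than its spread between pairs in every alternative. The median of all genes was 0.135 with median centring and 0.01 in the reported fit.

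Signs turned only for values near 0 among the 8 genes. Th was at -0.00402 without background correction, -0.0156 with processed signals, -0.0154 with the series table, -0.097 with the mutant in Cy5, -0.0107 after centring every pair on its tested genes, -0.0116 with the sex covariate, and between -0.0415 and 0.0484 with 1 pair left out. Gap43 was at 0.0952 with median centring and 0.0298 with the sex covariate, and Sox10 at -0.0436 with the mutant in Cy3. Dbh, Elavl3, Tubb3, Stmn2 and Prph kept their sign in every alternative that gave a value. Dbh had none with the filter of all 16 channels, in which it was not measured. Prph was at 0.04 with the mutant in Cy5 and 0.32 with the mutant in Cy3.

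Of the other named genes, Slc18a3 was at -0.0168 with processed signals, -0.0166 with the series table, -0.016 with median centring and -0.0173 with the mutant in Cy3. With 1 pair left out it ran from -0.0276 to 0.0794, and Chrnb4 from -0.0935 to 0.0209. Median centring turned Nrtn to 0.0561. Arrays with the mutant in Cy5 alone turned Chat to -0.0804, Kdr to -0.407, Cdh5 to -0.0388, Actg2 to 0.348, Acta2 to 0.234 and Maob to -0.00153, and those with the mutant in Cy3 turned Star to 0.0639 and Tagln to 0.0479. The sex covariate turned Calca to 0.012, Chrnb4 to 0.00822, Ddx3y to -0.0399, Kdm5d to -0.146 and Uty to -0.255. The cause of these turns was not tested. Dim spots limit Dbh and the unused probes of Th, Prph and Elavl3. The used Prph probe was also dim, with a mean log2 normalised intensity of 7.02 in mutant and 6.84 in wild-type kidneys, against 7.09 and 6.80 for Dbh. Those of Elavl3 (7.21 and 7.14) and Sox10 (7.21 and 7.17) were little brighter. With processed signals, ratios were also further from 0 for other named genes, among them Prph, Tubb3, Sox10, S100b, Sox8, Chgb, Nphs1 and Myh3, and nearer to 0 for Gap43 and Mdm4.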

Other observations

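Cntfr, which encodes the receptor of ciliary neurotrophic factor, had the widest disagreement among the measured neurotrophic genes. Its log2 ratios of mutant over wild type were -0.16, -0.72, 0.45 and -2.20 in pairs 1 to 4, with a mean of -0.66 ± 0.40 (SE, n = 4, limma adjusted p = 0.576). It was lower in the mutant in 3 pairs and higher in pair 3.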
